A study of Mus musculus with 3 samples.

Results

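The genes described here encode the proteins of the mitochondrial ribosome. They were chosen by name and type alone, as the rows of the deposited count table that are annotated as protein-coding and whose symbol begins with Mrpl or Mrps followed by a digit. This gave 77 genes of the 48709 in the table, or of 22005 nuclear protein-coding genes. The study sequenced RNA of sorted mouse lung cells in 3 libraries, all in 1 group named WT and labelled as lung smooth muscle cells. The mice carried a CreERT2 recombinase under smooth muscle actin, which tamoxifen activates, and the red fluorescent protein tdTomato. All received tamoxifen into the peritoneum at 75 mg/kg every day for 10 days from an age of 8 weeks, and the lungs were digested and the cells sorted 2 months later. No source used here gives the sort gate, and nothing states that the libraries are of separate mice, so the spread between libraries may be technical.

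Mitochondria keep their own ribosome, which makes the few respiratory chain proteins encoded by the mitochondrial genome. Its rRNAs come from that genome, while its proteins are made in the cytosol from nuclear genes and imported. Some of these proteins have counterparts in the bacterial ribosome, and others were added during the evolution of mitochondria.

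The libraries held 18896263, 18355813 and 16877297 counts for WT 1, 2 and 3, so that 3 counts, taken as the floor of detection and the most that a count of 0 allows, equalled 0.159, 0.163 and 0.178 CPM, that is, counts scaled to 1000000 in each library. Floors and intervals cover counting error only. Markers of the labelled cell type were scarce: 10 contractile genes summed to 139, 180 and 149 CPM, and Cnn1 had no count in at least 1 library. In the same libraries, 12 lymphocyte genes summed to 2809, 3244 and 3720 CPM, and 6 epithelial genes to 15282, 3036 and 8130 CPM, highest in WT 1. In bulk RNA of such a mixture, fewer cells of a type and less RNA per cell cannot be told apart. The labels give no second group to compare with here, so levels are described within libraries as a mean and SD of 3, without a test: an exact sign-flip permutation test of 3 libraries cannot give a p below 0.25.

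Nearly all of these genes were detected, at low to moderate levels. Of the 77, 76 had counts in every library and a mean of at least 1 CPM, 63 reached 5 CPM, 37 reached 10 CPM and 7 reached 20 CPM. Together they took 0.154%, 0.136% and 0.135% of nuclear protein-coding counts in WT 1, 2 and 3, a mean of 0.142% ± 0.0105 (SD, n = 3). The 95% Wilson interval in WT 1 ran from 0.151% to 0.156%, above the interval of 0.134% to 0.138% in WT 2. The 79 cytosolic ribosomal protein genes took 7.74% ± 0.655 of the same counts.

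Levels were compared between genes as CPM per kilobase of exon, on the scale log2(value + 0.1). On this scale the mitochondrial ribosomal protein genes had a median of 1.83 ± 0.12, and the difference to the median of cytosolic ribosomal protein genes in the same libraries was -6.22 ± 0.10. To 73 nuclear genes of the respiratory chain, the complexes that carry the proteins this ribosome makes, it was -2.13 ± 0.23. They lay 0.82 ± 0.16 above 41 genes of mitochondrial translation factors and ribosome assembly, a difference seen in each of the 3 libraries (0.64, 0.92 and 0.90). Without length, on log2(CPM + 1), the last difference was 0.40 ± 0.12 and the one to the respiratory chain -1.34 ± 0.10.

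**Figure D1:**
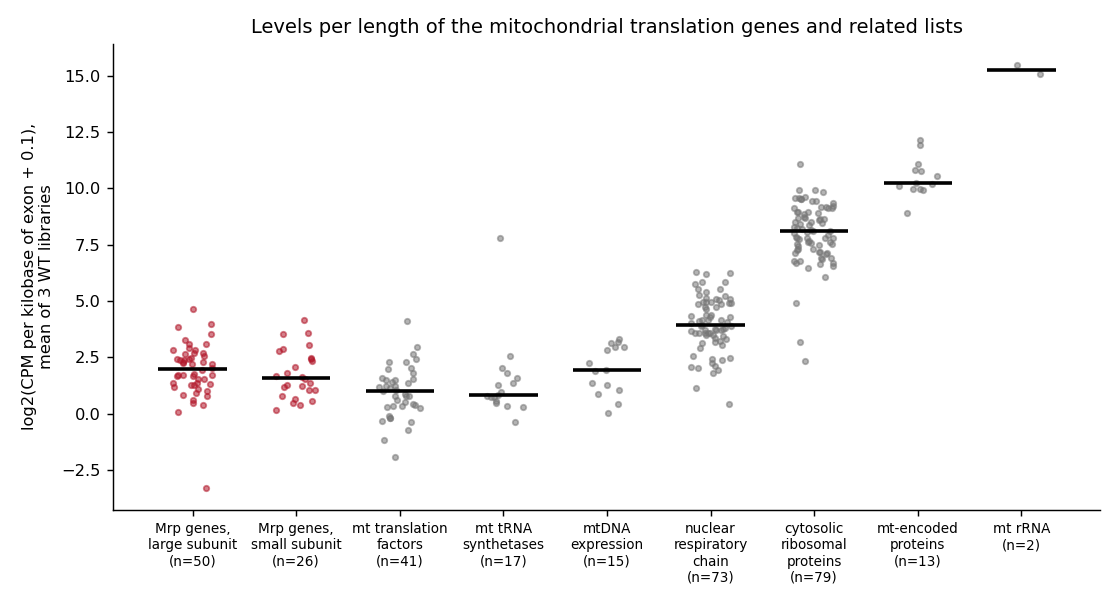
Each point is 1 gene, placed at its mean level over 3 WT libraries as log2(CPM per kilobase of exon + 0.1), and black bars are medians. Points of the mitochondrial ribosomal protein genes (red) lie below most of the 73 respiratory chain and 79 cytosolic ribosomal protein genes (grey).

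The large subunit joins amino acids into a chain, and 50 of the genes belong to it, among them Mrps18a and Mrps30, whose products sit there despite their symbols. Mrpl52, which encodes a protein of the large subunit with no bacterial counterpart (ENSMUSG00000010406, chromosome 14, 54426909 to 54429756), had the highest level, 28.8, 23.0 and 23.2 CPM per kilobase in WT 1, 2 and 3, a mean of 25.0 ± 3.25 (SD, n = 3). Mrpl18, whose product belongs to the region that holds 5S rRNA in bacterial ribosomes, followed with 15.3, 16.6 and 15.5 CPM per kilobase. Those libraries lay close together for Mrpl18, and its exons overlap the opposite-strand gene Tcp1, so its counts are uncertain. Mrpl54 had 19.8, 13.1 and 11.3 CPM per kilobase, with WT 1 apart from the other libraries. Mrpl24 had 9.97, 11.5 and 12.8 CPM per kilobase and 23.3% of its 50-base words also occur elsewhere, mostly in Rrnad1.

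At the low end of the large subunit, Mrpl47 had 1.17, 0.727 and 1.02 CPM per kilobase, Mrpl19 1.22 ± 0.241 and Mrpl17 1.32 ± 0.264. The spreads of these 3 genes overlap, so their order is not resolved. Exons of Mrpl47 and Mrpl19 overlap opposite-strand genes, and 23.3% and 37.0% of their words also occur elsewhere, so their counts are uncertain. Mrpl53 (ENSMUSG00000030037, chromosome 6, 83109040 to 83109939) had 0 counts in each library, which allows up to 0.178 CPM in WT 3. Of its 50-base words, 82.0% also occur in Gm42688, a protein-coding gene on the same strand that ends at the same base and had 3, 29 and 30 counts. A count of 0 does not show that Mrpl53 was silent, since a read from the shared stretch matches both genes.

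The small subunit decodes the mRNA, and 26 of the genes belong to it. Mrps21 led it with 15.9, 16.9 and 20.8 CPM per kilobase, followed by Mrps24 at 11.8 ± 2.16, Mrps15 at 11.4 ± 0.816 and Mrps23 at 8.07 ± 0.889. Mrps24 and Mrps15 do not differ beyond their spread, and counts of Mrps24 are uncertain because it shares 11.8% of its words with Urgcp. The lowest were Mrps18b at 1.07 ± 0.423, Mrps17 at 1.24 ± 0.361, Mrps10 at 1.31 ± 0.330 and Mrps35 at 1.39 ± 0.296 CPM per kilobase, which also overlap. Counts of Mrps18b are uncertain, since its exons overlap an opposite-strand gene and 30.2% of its words also occur elsewhere. The place of Mrps10 rests on the length used: per kilobase of its longest coding transcript it had 9.52 ± 2.39 CPM and rank 24 of the 77, against rank 72 by all exons. Mrps9 had the most counts of all 77 genes, 31.2 CPM, but long exons placed it at rank 25 per kilobase.

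The median of the large subunit exceeded that of the small subunit by 0.42, 0.12 and 0.39 in WT 1, 2 and 3, a mean of 0.31 ± 0.17 on the log2 scale. This difference did not hold up. It was 0.51 ± 0.21 with the length of the longest coding transcript and 0.074 ± 0.182 without length. Leaving out genes that overlap an opposite-strand gene or share at least 1%, 10% or 20% of their words gave 0.10 ± 0.24, 0.24 ± 0.23 and 0.030 ± 0.11. The 30 genes without a bacterial counterpart differed from the 46 with one by -0.054 ± 0.143, which is within its spread.

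**Figure D2:**
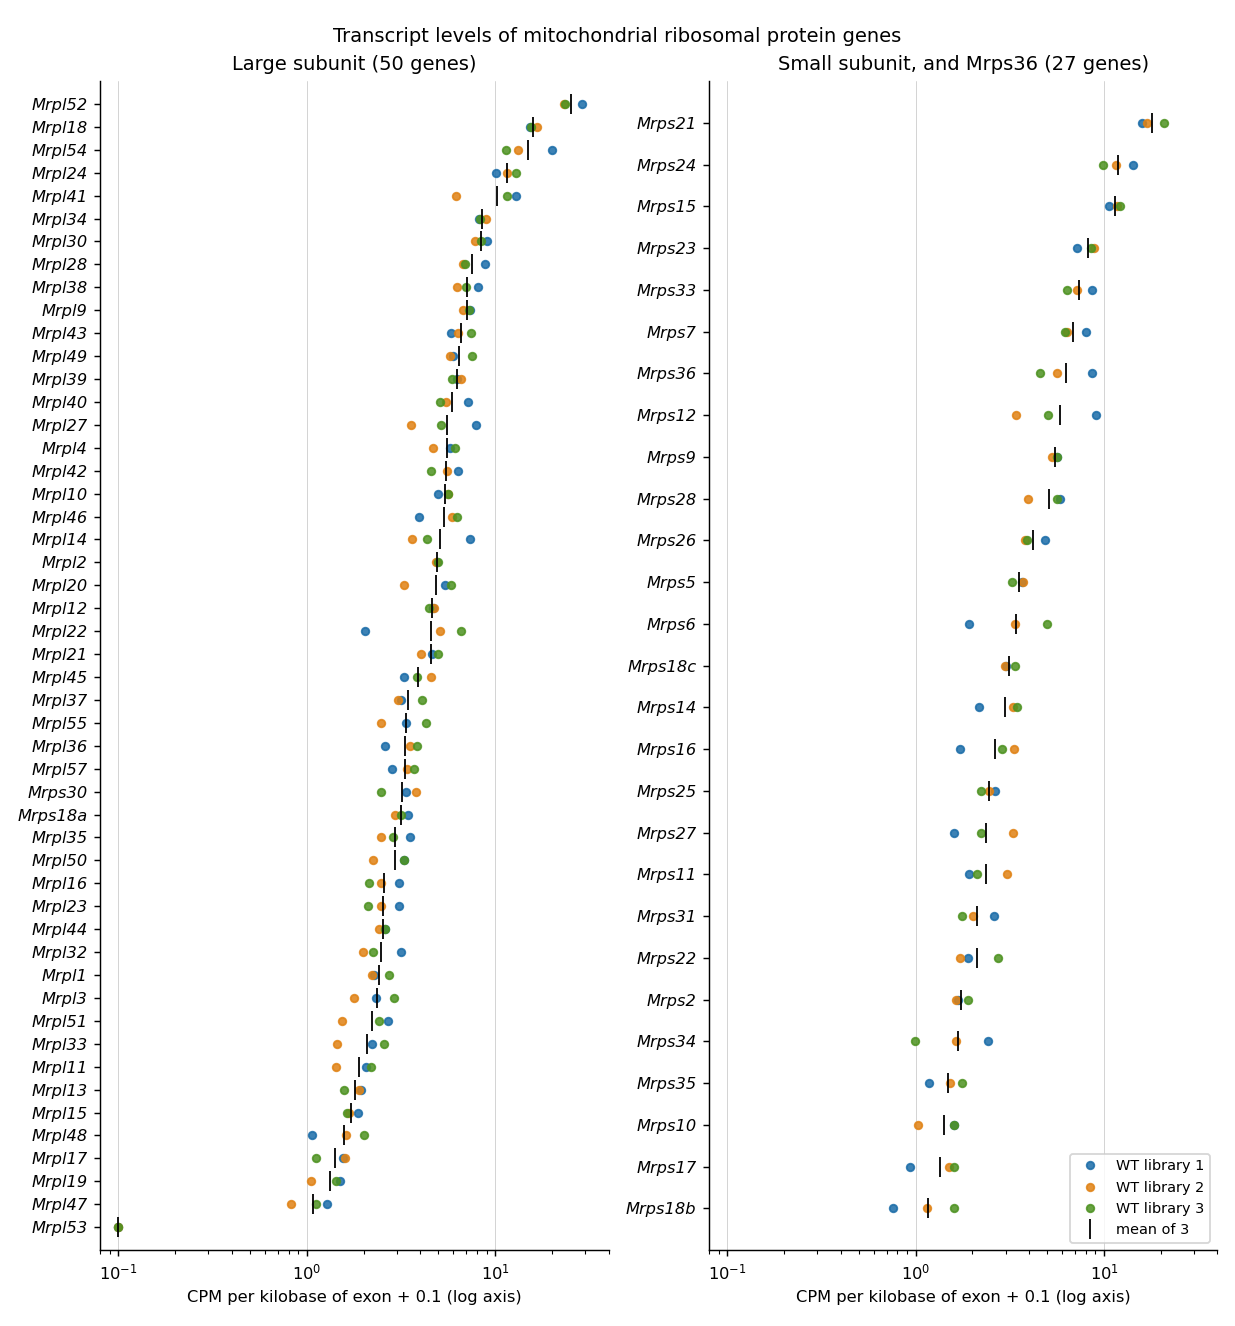
Levels of all 77 genes in each WT library, as CPM per kilobase of exon plus 0.1 on a log axis, with the mean of 3 as a black bar. Mrpl52 stands highest at 25.0, Mrpl53 at 0 lies at the left edge, and neighbouring genes in the order mostly overlap.

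Products of these genes, Mrps36 apart, meet in 1 particle, yet their transcript levels were not equal. The 90th percentile was 6.32 times the 10th in CPM per kilobase. On the log2 scale the SD over genes was 1.20 ± 0.05, and 1.04 without Mrpl53, the only gene under 1 CPM. It was 1.38 for cytosolic ribosomal proteins and 1.24 for the respiratory chain. Over nuclear protein-coding genes with 10 or more counts it was 2.36, so these levels were less spread than those of such genes at large. The order depends on the length used: across the 77 genes the ranks by all exons and by the longest coding transcript had a Spearman rho of 0.750, given as a description. Mrpl33 moved to rank 2 by its longest coding transcript, against rank 63 by all exons, and Mrpl42 to rank 3, against rank 26. Mrpl52 ranked 1 by both.

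Several genes have roles of their own. Mrpl10 and Mrpl12, which form the stalk that recruits translation factors, had 5.31 ± 0.359 and 4.52 ± 0.168 CPM per kilobase, while Mrpl11 at the stalk base had 1.79 ± 0.404. The paralogues Mrps18a, Mrps18b and Mrps18c, whose products occupy different places in the ribosome, had 3.08 ± 0.254, 1.07 ± 0.423 and 3.01 ± 0.205. Mrps18b was lower than both others in every library. However, 30.2% of the words of Mrps18b and 22.9% of those of Mrps18c also occur elsewhere, so the counts of both are uncertain. By the longest coding transcript the paralogues had 12.9 ± 1.06, 2.07 ± 0.819 and 3.95 ± 0.269, in the same order. The like levels of Mrps18a and Mrps18c thus hold for all exons only. Mrpl44, which has an RNase III fold, had 2.44 ± 0.104, and Mrps30 had 3.11 ± 0.670. Mrps36, now known as a subunit of the α-ketoglutarate dehydrogenase complex and not of the ribosome, had 6.18 ± 2.13 and was counted in neither subunit. Exons of Mrpl10, Mrpl12, Mrpl44, Mrps18b and Mrps30 overlap opposite-strand genes, and Mrps36 shares 17.3% of its words, so their counts are uncertain too.

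Some proteins of this ribosome carry other names and so fall outside the 77. Of 6 such genes, Aurkaip1 was highest with 15.4 ± 0.942 CPM per kilobase, and Ict1, a peptide release factor built into the large subunit, had 5.44 ± 1.02. Dap3, a GTP-binding protein of the small subunit, had 3.69 ± 0.672. Among translation factors, the elongation factors Tufm and Gfm1 had 7.69 ± 0.912 and 5.31 ± 0.295, while Tsfm had 1.49 ± 0.469. Mitochondrial tRNA synthetases, 17 genes, differed from the 77 genes by -0.90 ± 0.19 in their medians on the log2 scale. The 2 mitochondrial rRNAs, around which the proteins assemble, took 9.61%, 8.70% and 11.2% of all counts in WT 1, 2 and 3.

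Processed pseudogenes of these genes are part of the table, and sequence shows how far their counts can be told apart. A stretch of Mrpl23, a large subunit gene (ENSMUSG00000037772, chromosome 7, 142532686 to 142540747), is printed first because Mrpl23-ps1 is identical to it. The Mrps36 stretches follow because its pseudogenes range from near identity to clear divergence. Capitals mark the bases that differ, and positions count from 1 at the first base of the coding sequence.
Mrpl23 and Mrpl23-ps1, positions 96 to 185: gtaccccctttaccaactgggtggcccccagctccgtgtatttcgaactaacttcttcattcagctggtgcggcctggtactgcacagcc
Mrps36, positions 39 to 128: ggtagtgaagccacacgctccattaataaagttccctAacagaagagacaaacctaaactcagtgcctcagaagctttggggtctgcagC
Mrps36-ps1, positions 39 to 128: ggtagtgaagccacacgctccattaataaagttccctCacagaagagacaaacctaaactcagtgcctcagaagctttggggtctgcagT
Mrps36, positions 94 to 183: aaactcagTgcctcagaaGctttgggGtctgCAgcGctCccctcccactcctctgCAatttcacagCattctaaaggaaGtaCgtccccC
Mrps36-ps3, positions 94 to 183: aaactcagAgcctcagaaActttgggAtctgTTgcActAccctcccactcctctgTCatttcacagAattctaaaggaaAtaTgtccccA

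Mrpl23-ps1 aligned to the Mrpl23 transcript over 507 bases with 0 mismatches, and it had 229, 173 and 136 counts, against 275, 213 and 165 for Mrpl23. That is 83.3%, 81.2% and 82.4% of the parent, nearly the same share in each library. Mrps36-ps1, with 99.3% identity and the substitutions A76C and C128T in the printed stretch, had 76, 53 and 33 counts, against 206, 129 and 96 for Mrps36. Mrps36-ps2, with 99.0% identity, had 43, 30 and 21. Mrps36-ps3, with 87.4% identity and no 50-base word in common with another gene, had 0 counts in all 3 libraries. Mrpl48-ps had 26, 47 and 71 counts, against 149, 228 and 264 for Mrpl48, and is 98.1% identical to it. The 4 pseudogenes that share 50-base words with other genes had counts, and the order of the libraries was that of the parent in each. Their shares of the parent were less even than for Mrpl23-ps1 in some cases. Mrps36-ps1 had 36.9%, 41.1% and 34.4% of the parent's counts in WT 1, 2 and 3. Mrps36-ps2 had 20.9%, 23.3% and 21.9%, and Mrpl48-ps rose from 17.4% in WT 1 to 20.6% and 26.9%. Of its 50-base words, Mrpl23-ps1 shares 92.5% with other genes, Mrps36-ps1 61.1%, Mrps36-ps2 66.9% and Mrpl48-ps 44.6%. No source used here says how the authors assigned reads that match several genes. Reads from the shared stretches of parent and pseudogene therefore cannot be told apart.

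**Figure D3:**
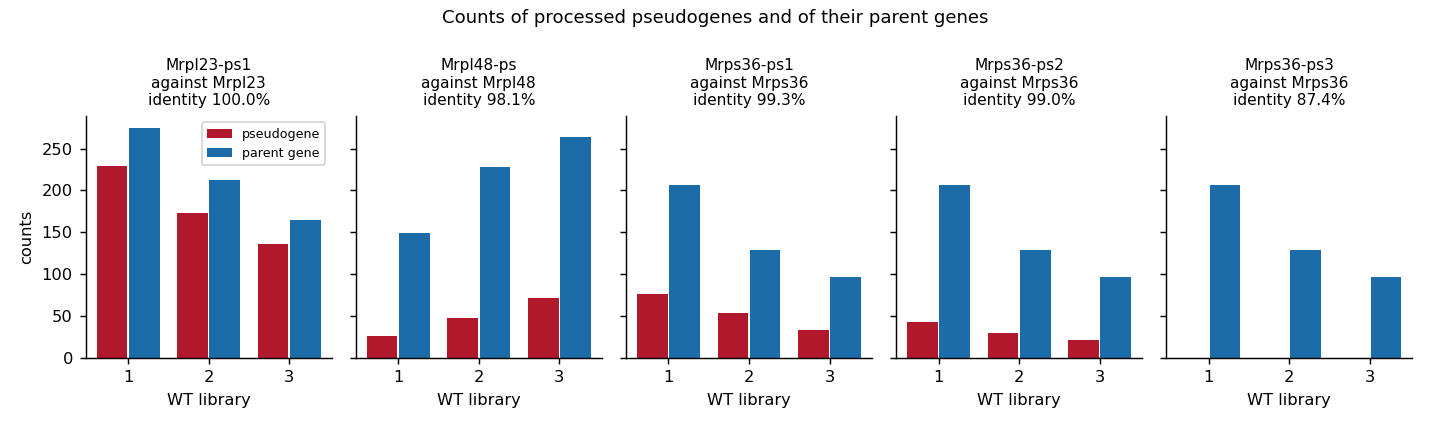
Counts in each WT library of 5 processed pseudogenes (red) and their parent genes (blue), with the identity of the aligned sequence above each panel. Bars of the near-identical pseudogenes follow the order of the parent across libraries, and Mrps36-ps3 at 87.4% identity has 0 counts.

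Shared sequence and overlapping exons reach beyond pseudogenes, though whether reads were shared was not tested. Exons of 27 of the 77 genes overlap an opposite-strand gene, and 21 share at least 10% of their 50-base words with another gene, which makes 35 genes uncertain by either measure. Mrps34 shares 71.8% and Mrps25 68.2% of their words, in the case of Mrps25 with Nr2c2. These measures come from the mouse GRCm38 annotation, and no source used here gives the strand setting of the counting.

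The genes lie on 17 chromosomes, 10 of them on chromosome 11, 8 on chromosome 17 and 7 on chromosome 6. Many begin close to a gene read in the opposite direction. With starts head to head, not overlapping and within 1000 bases, 18 of 77 had such a neighbour (23.4%), against 6.77% of 21839 nuclear protein-coding genes and 11.4% of cytosolic ribosomal protein genes. Counting any opposite-strand start within that distance, a wider definition tried after the first list had been seen, gave 33 of 77 (42.9%), against 10.8% and 20.3%. Among the 18, Mrps12 faces Sars2, the mitochondrial seryl-tRNA synthetase, at 172 bases, and Mrpl49 faces Fau, which encodes a cytosolic ribosomal protein, at 59 bases. Mrpl32 faces the proteasome gene Psma2 at 75 bases. The 2 sides of such a start need not have like levels: Mrps18b had 26, 40 and 53 counts, against 1833, 2879 and 2989 for its neighbour Ppp1r10.

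Promoter windows from RefSeq (GRCm38.p6), 250 bases before to 50 after each start, were found for 68 of the 77 genes. The windows printed here show the highest gene and 3 genes with a head-to-head neighbour. They were picked after their values and matches were seen. Capitals mark matches to CCGGAAG (the core bound by ETS factors such as GABPA), GCATGCGC (the core of NRF1, a regulator of nuclear genes for mitochondria) and AAGATGGCG (YY1), on either strand.
Mrpl52, chr14:54426659-54426958, plus strand: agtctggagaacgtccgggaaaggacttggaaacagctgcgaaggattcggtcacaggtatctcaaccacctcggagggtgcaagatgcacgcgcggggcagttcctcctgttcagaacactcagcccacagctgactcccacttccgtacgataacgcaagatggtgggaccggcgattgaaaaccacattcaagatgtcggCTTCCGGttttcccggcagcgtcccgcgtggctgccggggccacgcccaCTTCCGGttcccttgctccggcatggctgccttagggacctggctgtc
Mrpl32, chr13:14612988-14613287, minus strand: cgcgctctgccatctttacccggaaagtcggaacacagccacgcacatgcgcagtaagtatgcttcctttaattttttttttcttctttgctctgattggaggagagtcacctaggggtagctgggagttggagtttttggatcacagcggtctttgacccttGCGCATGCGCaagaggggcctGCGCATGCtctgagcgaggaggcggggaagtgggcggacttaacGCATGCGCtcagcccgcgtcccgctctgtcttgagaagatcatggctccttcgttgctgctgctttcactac
Mrps18b, chr17:35916391-35916690, minus strand: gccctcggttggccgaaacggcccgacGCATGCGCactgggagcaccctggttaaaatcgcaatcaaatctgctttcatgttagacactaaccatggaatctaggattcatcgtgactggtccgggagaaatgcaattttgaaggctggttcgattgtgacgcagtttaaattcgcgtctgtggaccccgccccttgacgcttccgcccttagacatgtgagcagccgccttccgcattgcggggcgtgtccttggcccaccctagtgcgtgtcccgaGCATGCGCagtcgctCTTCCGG
Mrps27, chr13:99344536-99344835, plus strand: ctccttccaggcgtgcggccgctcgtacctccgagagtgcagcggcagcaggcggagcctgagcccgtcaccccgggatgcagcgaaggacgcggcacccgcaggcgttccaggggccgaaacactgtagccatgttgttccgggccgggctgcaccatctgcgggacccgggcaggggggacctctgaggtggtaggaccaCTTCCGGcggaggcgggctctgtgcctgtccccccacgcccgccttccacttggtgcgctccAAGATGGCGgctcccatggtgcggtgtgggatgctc

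The Mrpl52 window holds the ETS letters in 2 places, and the Mrpl32 window holds 4 matches to the NRF1 letters. Of those 4, 2 overlap because GCATGC within the motif is its own reverse complement. Over all windows, the ETS letters occurred in 25 of 68 (36.8%), against 12.9% of 17491 protein-coding genes and 41.4% of cytosolic ribosomal protein genes. NRF1 letters occurred in 8 (11.8%), against 3.93%, and YY1 letters in 8 (11.8%), against 2.14%. Respiratory chain genes had the NRF1 letters in 16.1% and the YY1 letters in 11.3%. Shares for SP1 (GGGCGG, 50% against 49.2%), CCAAT (39.7% against 42.3%) and the E-box (CACGTG, 7.35% against 8.91%) were near those of all genes, and TATAAA occurred in 7.35%, against 14.8%. A gene was counted if any of its windows held the letters. Several windows were listed for 3 of the 68 genes and for 2761 of the 17491, which can raise the shares of all genes more. Genes with the ETS letters had a median of 3.22 CPM per kilobase and those without 3.44. A match describes letters in a window and does not show a bound site.

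**Figure D4:**
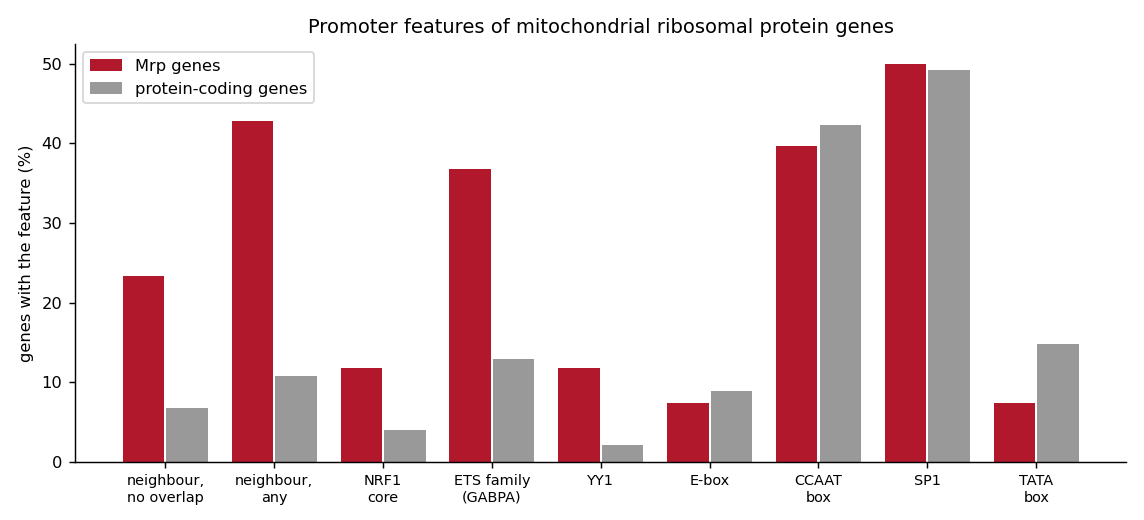
Percentage of mitochondrial ribosomal protein genes (red) and of protein-coding genes (grey) with a neighbouring opposite-strand start within 1000 bases, by both definitions, or with each motif in the promoter window. Red bars are taller for both neighbour definitions and for NRF1, ETS and YY1, and shorter for the TATA box.

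Whether a gene's counts differed between libraries by more than counting error was asked with a chi-square test, using library sizes after TMM scaling and Benjamini-Hochberg adjustment over 23317 genes. At an adjusted p under 0.05, 52 of the 76 genes tested varied beyond counting error (68.4%), where 70.0% of all genes did. Among 7560 nuclear protein-coding genes within the same range of counts, 71.6% did. The share of mitochondrial ribosomal protein genes called is thus near the background. Of the 76, 35 varied and were highest in WT 1 (46.1%), against 28.2% of all genes and 31.4% within the count range. In WT 2 these were 9 (11.8%), against 22.0% of all genes and 21.1% within the count range. In WT 3 they were 8 (10.5%), against 19.9% and 19.1%. The median deviation of the 76 genes from their own means was 0.13, -0.03 and -0.07 in WT 1, 2 and 3 on the log2 scale, where nuclear protein-coding genes had 0.0044, 0.0019 and 0.012. This order of libraries rests on TMM sizes and was not repeated with other sizes. The 77 genes took 0.154%, 0.136% and 0.135% of nuclear protein-coding counts, but 0.0875%, 0.0798% and 0.0853% of library totals. In CPM per kilobase their median log2 level was 1.75, 1.77 and 1.96, highest in WT 3. Nuclear protein-coding genes had 1.35, 1.33 and 1.46. By subunit, 24 of 49 large subunit genes and 10 of 26 small subunit genes varied and were highest in WT 1, a difference that was not tested. Related lists did not all go one way. Varied and highest in WT 1 were 43 of 73 respiratory chain genes and 41 of 79 cytosolic ribosomal protein genes, and also 13 of 41 translation factor genes, 3 of 15 genes of mitochondrial DNA expression, 2 of 17 mitochondrial tRNA synthetases and 0 of 6 mitochondrial ribosomal genes with other names, beside the 28.2% of all genes. Of those 6, 4 varied and were lowest in WT 1, and their median deviation there was -0.14. Without WT 1, 22 of the 76 were called, where 38.2% of all genes were. Without WT 2 it was 37, where 53.4% of all genes were, and without WT 3 it was 44, where 56.8% were. Size factors of DESeq2 gave 52 (70.1% of all genes), library totals 52 (72.1%), protein-coding totals 53 (70.0%), no count minimum 51 (53.3%) and a mean of at least 1 CPM 53 (73.8%). WT 1 also had the highest share of microRNA counts, 15.1% against 12.9% and 8.36% in WT 2 and 3. Cell type markers moved with it as well: epithelial and endothelial sums were highest in WT 1, with 6 endothelial genes at 721 CPM against 425 and 547 CPM, while the sum of 6 fibroblast genes was lowest there, at 373 CPM against 932 and 853 CPM. The contractile and lymphocyte sums were also lowest in WT 1. The part of any of these in the pattern was not tested.

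Mrps12, which encodes a protein of the decoding centre (ENSMUSG00000045948, chromosome 7, 28739641 to 28741820), had the widest range among the called genes with at least 5 CPM. It had 177, 63 and 87 counts in WT 1, 2 and 3, a 2.77-fold range after scaling (adjusted p = 2.8e-14, chi-square test). WT 1 was apart from the others, and without it the adjusted p was 0.11. Mrps6 had 53, 92 and 126 counts, a 2.32-fold range with WT 1 lowest, and without WT 1 its adjusted p was 0.056. Mrpl27, near the site of peptide bond formation in bacterial ribosomes, had 146, 63 and 84 counts and a 2.29-fold range, and its adjusted p without WT 1 was 0.17. Mrpl41 had 215, 99 and 172 counts, a 2.16-fold range with WT 2 low, and Mrpl51 had 199, 107 and 158, again with WT 2 low. Without WT 2 their adjusted p were 0.057 and 0.059. Counts of Mrps6, Mrpl27 and Mrpl41 are uncertain, since 17.3%, 26.9% and 11.3% of their words also occur elsewhere. Mrps36, Mrpl54 and Mrps16 had ranges of 2.14-fold, 1.96-fold and 1.91-fold, the first 2 highest and Mrps16 lowest in WT 1, and none of the 3 was called without WT 1. These 8 genes were picked for their range and the library left out was the extreme one, which by itself weakens the p. Each was still called without either of the other libraries. For example, the adjusted p (chi-square test) was 2.5e-07 for Mrps12 without WT 2 and 0.0070 for Mrpl51 without WT 1. At the other end, Mrps18c had 59, 57 and 59 counts and Mrpl2 107, 102 and 96, neither of which was called.

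**Figure D5:**
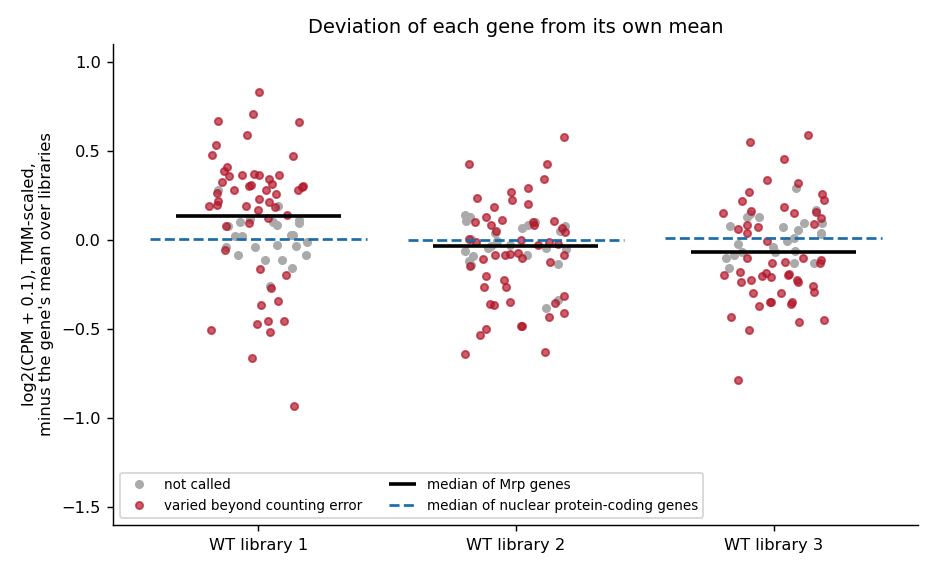
For each of 76 genes, the deviation of its TMM-scaled log2(CPM + 0.1) in a WT library from its own mean over 3 libraries. Red points varied beyond counting error, black bars are medians of these genes (0.13, -0.03 and -0.07) and dashed lines those of nuclear protein-coding genes.

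The biological coefficient of variation is the spread between libraries beyond counting error as edgeR estimates it. Its median was 0.268 over the 76 genes, beside 0.258 for all genes kept by the expression filter and 0.235 for nuclear protein-coding genes. It was 0.274 for translation factor genes, 0.200 for the respiratory chain and 0.148 for cytosolic ribosomal proteins, whose counts are far higher.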

How the data were processed

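The authors deposited raw counts of reads, as whole numbers, of each gene in 3 WT libraries. Per the submitters' processing notes, Trimmomatic 0.38, STAR 2.6.1d, featureCounts 1.6.3 and DESeq2 1.18.1 were used, without order or settings. The notes list human builds, whereas gene IDs are mouse; all 77 genes are in the GRCm38 annotation of GENCODE, 63 with identical coordinates. Per the labels' protocols, RNA came from a miRNeasy micro kit with DNase, and libraries from a stranded SMARTer total RNA kit. Columns named as controls 1 to 3 were taken as WT 1 to 3 by number.

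CPM are counts per 1000000 of the library total, and exon length is the union of exons. Variation was tested by chi-square on counts with TMM sizes, where a gene had 10 or more counts in all, with Benjamini-Hochberg adjustment. The spread was fitted with edgeR 4.0.16 (R 4.3.3), using its expression filter and no term but an intercept, and alternative size factors came from DESeq2 1.42.0. Both steps were tested on simulated data. Depth was 16877297 to 18896263 counts.

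Named genes are the 4 highest and 4 lowest per kilobase in each subunit, the 8 with the widest range among called genes at 5 CPM or more, any gene without counts in a library, and genes with a role of their own; others were chosen after their values were seen. The members and lists were chosen with earlier results of these data known. Also added after the values were seen were the neighbour and pseudogene comparisons, the background within the count range, the counts of genes highest in a library, the 10% limit on shared words, and the choice of printed sequences.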

Additional observations from a re-analysis of the deposited data

Results flagged for a closer look

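Counts at 4 processed pseudogenes stood out because these rows lie outside the 77 genes and were above the floor of 3 counts in each library. Mrpl23-ps1 had a mean of 9.87 ± 2.07 CPM, against 12.0 ± 2.41 CPM for Mrpl23. Mrps36-ps1 had 2.95 ± 1.03 CPM and Mrps36-ps2 1.72 ± 0.521 CPM, against 7.87 ± 2.71 CPM for Mrps36. Mrpl48-ps had 2.71 ± 1.42 CPM, against 12.0 ± 3.90 CPM for Mrpl48 (SD, n = 3 each). Whether any of these counts came from transcripts of the pseudogenes was not tested.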

How the results depend on the processing

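No paired analysis was possible because the labels give 1 group only. The large minus small subunit difference of 0.31 moved to 0.51 with the longest coding transcript, to 0.074 without length, and to 0.10 and 0.030 when genes that overlap or share at least 1% or 20% of words were left out, limits chosen after seeing the data. Genes without minus genes with a bacterial counterpart, -0.054, came to 0.16 without length and to 0.16 without uncertain genes. Against cytosolic ribosomal proteins the difference of -6.22 became -5.90 with a pseudocount of 1, -6.74 with the longest coding transcript, -5.53 without length and -5.45 without uncertain genes. Against the respiratory chain it became -1.88 with a pseudocount of 1 and -1.34 without length. Against translation factors it became 0.61 with a pseudocount of 1, 0.40 without length and 0.39 without uncertain genes. Leaving out uncertain genes kept only 13 of 79 cytosolic ribosomal protein genes, 40 of 73 respiratory chain genes and 14 of 41 translation factor genes. The SD over genes, 1.20, became 0.88 with a pseudocount of 1, 1.36 with the longest coding transcript, 0.88 without length, 1.04 at 1 CPM or more and 1.06 without uncertain genes. The share became 0.0842% of the library total. Leaving out uncertain genes left 42, of which 29 were called (69.0%). Limits of 1% and 20% of words left 28, of which 16 were called (57.1%), and 48, of which 35 were called (72.9%), beside 70.0% of all genes. Fewer genes were counted by construction. Other size factors and count minimums gave 51 to 53 called genes, where 53.3% to 73.8% of all genes were called. A wider definition raised the genes with a neighbouring start to 33, against 18.

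Leaving out 1 library at a time gave 22 to 44 called genes (22 without WT 1, 37 without WT 2, 44 without WT 3), a coefficient of variation of 0.215 to 0.306, a subunit difference of 0.26 to 0.41, and -0.12 to 0.02 for genes without a bacterial counterpart. The differences ran from -6.28 to -6.19 against cytosolic ribosomal proteins, from -2.20 to -1.99 against the respiratory chain and from 0.77 to 0.91 against translation factors, the SD over genes from 1.17 to 1.22 and the share from 0.136% to 0.145%. Of all genes, 38.2% were called without WT 1, 53.4% without WT 2 and 56.8% without WT 3, against 70.0% with every library. Of the named genes tested, 12 calls were lost without WT 1, 6 without WT 2 and 3 without WT 3. Some of the named genes had been picked for a wide range. Depth limits the lowest genes: at 26 counts, as for Mrps18b in WT 1, counting error is large.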
